A study of Mus musculus with 38 samples.

Results

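The 10 genes S100a8, S100a9, Retnlg, Mmp8, Clec4e, Clec4d, C5ar1, Cxcr2, Csf3r and Trem1 are used as markers of neutrophils, and they were followed here in RNA of isolated mouse intestinal epithelial cells during colitis. They are 10 of the 46078 genes in the deposited count tables and were taken by their symbols. The list was chosen by levels already known from the same libraries, in which these genes were higher on day 7 than on day 3. The rise between those days is therefore given as a description, and no test of it is used as support. Differences between genotypes, and the pattern among the libraries of day 7, were not used in the choice.

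The libraries come from C57BL/6 mice and compare a knockout of hexokinase 2, the enzyme of the first step of glycolysis, with littermate controls. WT mice carried floxed Hk2 alleles (Hk2 flox/flox). KO mice (Hk2ΔIEC) carried the same floxed alleles together with Cre recombinase driven by the Villin promoter, which is active in intestinal epithelium, so leukocytes of KO mice are not the target of the deletion. Animals were untreated (day 0) or had received 1.5% dextran sodium sulfate (DSS), an agent that injures the colonic epithelium, in drinking water for 3 or 7 days. The groups held 4 WT and 5 KO libraries on day 0, 7 WT and 8 KO on day 3, and 7 WT and 7 KO on day 7, with 1 animal per library. Mice given DSS were males of 10 to 12 weeks, and the genotypes shared cages. For untreated phenotyping the submitters give 2 age ranges, 9 to 11 weeks and 86 to 92 weeks, and which of them applies to the day 0 animals is not given in the sources used here.

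Neutrophils are short-lived granulocytes made in the bone marrow, and in colitis they leave the blood and cross the damaged epithelium into crypts and lumen. S100a8 and S100a9 encode the subunits of calprotectin, an abundant cytosolic protein of neutrophils whose measurement in stool is used to follow intestinal inflammation. Csf3r, Cxcr2 and C5ar1 are the receptors for the growth factor G-CSF, for CXC chemokines and for the complement fragment C5a, which act on the release and the migration of these cells. Several of the genes, among them Trem1, Clec4e, Clec4d and C5ar1, are also expressed by monocytes and macrophages, and S100a8 and S100a9 can be expressed by stressed epithelium. In bulk RNA, more cells of a type and more RNA per cell cannot be told apart.

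The upstream sequences of 4 of the genes are shown because they are the 4 of the 10 whose window of 250 bases before the RefSeq start held the letters TTGCNNAA of the C/EBP motif, a family of factors of granulocyte genes. The windows are on the GRCm38.p6 build at chr3:90695722-90695971 for S100a9 (minus strand), chr16:48872358-48872607 for Retnlg (plus strand), chr9:7558179-7558428 for Mmp8 (plus strand) and chr6:123289872-123290121 for Clec4e (minus strand). Each is written 5′ to 3′ on the strand of its gene. Capitals mark every match of the C/EBP letters, of GAGGAA (a core of the PU.1 motif) and of TATAAA, the first pair on both strands and TATAAA on the strand of the gene.
S100a9: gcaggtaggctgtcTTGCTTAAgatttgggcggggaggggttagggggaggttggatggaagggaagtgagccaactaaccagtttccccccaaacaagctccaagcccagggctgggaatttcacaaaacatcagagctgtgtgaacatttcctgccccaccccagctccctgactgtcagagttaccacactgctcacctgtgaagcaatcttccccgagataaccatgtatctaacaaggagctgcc
Retnlg: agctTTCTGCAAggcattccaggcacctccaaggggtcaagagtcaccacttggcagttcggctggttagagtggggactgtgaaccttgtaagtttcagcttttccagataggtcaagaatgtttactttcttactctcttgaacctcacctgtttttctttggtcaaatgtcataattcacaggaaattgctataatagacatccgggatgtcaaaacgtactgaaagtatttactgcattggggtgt
Mmp8: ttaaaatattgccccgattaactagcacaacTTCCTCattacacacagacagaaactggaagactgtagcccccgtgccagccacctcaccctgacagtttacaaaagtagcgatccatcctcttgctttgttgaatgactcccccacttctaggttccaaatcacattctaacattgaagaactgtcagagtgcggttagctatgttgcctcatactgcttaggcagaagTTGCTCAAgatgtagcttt
Clec4e: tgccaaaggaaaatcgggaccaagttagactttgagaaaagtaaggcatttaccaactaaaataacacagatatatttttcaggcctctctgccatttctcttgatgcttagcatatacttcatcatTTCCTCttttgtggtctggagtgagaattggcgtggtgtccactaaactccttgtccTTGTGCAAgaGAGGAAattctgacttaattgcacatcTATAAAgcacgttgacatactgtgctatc
The C/EBP letters began at -236 in S100a9, -246 in Retnlg, -19 in Mmp8 and -66 in Clec4e, counted backwards from the start site, with the match of Retnlg and that of Clec4e on the opposite strand. Of all 32851 windows of that length in the RefSeq table, 9.56% held these letters. GAGGAA stood in 7 of the 10 windows and in 23.2% of all windows. In Mmp8 its match began at -219 on the opposite strand, and in Clec4e matches began at -123 on the opposite strand and at -56. TATAAA stood in the windows of S100a8 and Clec4e, where it began at -30 and -29, and in 7.59% of all windows. The AP-1 letters TGANTCA were in none of the 10 windows and in 6.75% of all. A match is a description of letters and does not show that a factor binds there.

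The genes lie apart from one another except for 2 pairs of neighbours. In the files' coordinates on GRCm38, S100a8 (ENSMUSG00000056054) is at chr3:90668978-90670035 on the plus strand and S100a9 (ENSMUSG00000056071) at chr3:90692632-90695721 on the minus strand. Clec4d (ENSMUSG00000030144) is at chr6:123262107-123275268 on the plus strand and Clec4e (ENSMUSG00000030142) at chr6:123281789-123289870 on the minus strand. Retnlg (ENSMUSG00000022651) is on chromosome 16, Mmp8 (ENSMUSG00000005800) on 9, C5ar1 (ENSMUSG00000049130) on 7, Cxcr2 (ENSMUSG00000026180) on 1, Csf3r (ENSMUSG00000028859) on 4 and Trem1 (ENSMUSG00000042265) on 17. All 10 are protein-coding, and no exon of theirs overlaps an exon of another gene in the annotation, so the neglect of strand in the counting does not mix them with an overlapping gene.

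Libraries held 10.5 to 60.6 M counts, so that 3 counts, taken as the floor of detection, corresponded to 0.0452 to 0.352 CPM (counts per M counts, scaled by TMM as in all levels below). Hk2, the targeted gene, was at 33.1 to 118 CPM in KO and 254 to 449 CPM in WT on day 0 (log2 fold change -2.20, edgeR quasi-likelihood test, adjusted p = 0.0331). When 1 library was left out the fold change was -2.40 to -1.998 and the adjusted p 0.0085 to 0.176 in edgeR's quasi-likelihood test, and the call was lost without WT 41, 43 or 46 or KO 24, 53 or 54. On day 3 it was at 97.0 to 220 CPM in WT and 68.4 to 128 CPM in 7 KO libraries. The library labelled d3_KO_345 had 435 CPM, above every WT library of that day and against its label, so results that rest on it are given with and without it. The day 3 difference in Hk2 was -0.27 (-0.74 without that library), and neither this nor that of day 7 (-1.25) was called, with adjusted p of 0.802, 0.770 and 0.291 in edgeR's quasi-likelihood test. On day 7 Hk2 ranged from 228 to 611 CPM in WT and from 56.1 to 268 CPM in KO, and the highest KO value was that of d7_KO_420. Epithelial markers were abundant in every library: the sum of 9 of them was 9685 to 19240 CPM over the 38 libraries. That sum does not measure the purity of the preparations. Day 0 libraries belong to another series of library names than those of days 3 and 7, and treatment and library series cannot be told apart between them, so day 0 is given as levels.

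Before treatment and on day 3 the 10 genes were near the floor of detection. Their summed level was 0.362 to 2.06 CPM in WT and 0.312 to 3.75 CPM in KO on day 0. On day 3 it was 0.267 to 1.78 CPM in WT and 0.0799 to 4.83 CPM in 7 KO libraries. C5ar1 had no count in any of the 5 KO libraries of day 0, and Mmp8 had 1 count in 1 of the 7 WT libraries of day 3 and none in the other 6. On day 7 the sum was 88.6 to 1039 CPM in WT, with a median of 173 CPM, and 41.5 to 1546 CPM in KO, with a median of 142 CPM. Every library of day 7 was thus above every library of days 0 and 3 other than d3_KO_345 in that sum. The library labelled d3_KO_345 had a sum of 66.0 CPM, above that of the lowest day 7 library. In d7_KO_420 the 10 genes took 0.133% of all counts (95% Wilson interval 0.132 to 0.134%), and in d7_KO_423 they took 0.00439% (0.0042 to 0.00458%).

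**Figure D1:**
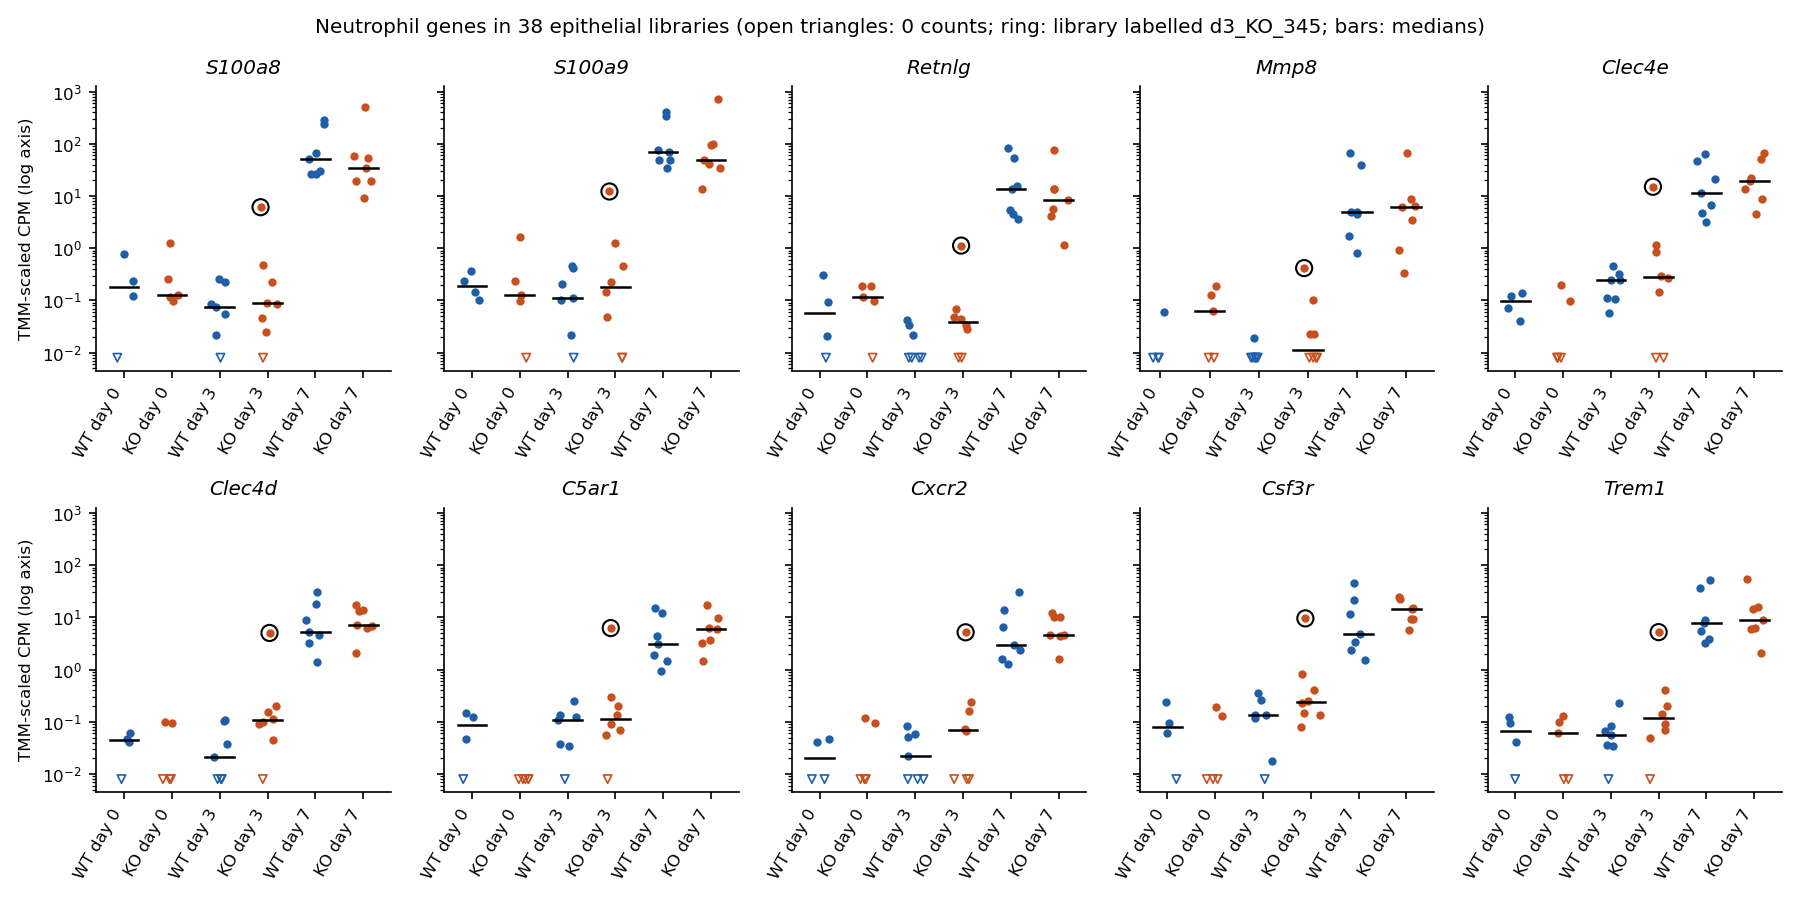
TMM-scaled CPM on a log axis for each of the 10 genes in the 38 libraries, by genotype and day (blue: WT, orange: KO; bars: medians; open triangles: libraries with 0 counts; ring: the library labelled d3_KO_345). All 10 genes are near the floor in both groups of days 0 and 3, and all day 7 libraries lie above them except where the ringed library reaches the day 7 range.

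S100a8 and S100a9, the calprotectin genes, had the highest levels of the 10. S100a8 was at 0 to 0.788 CPM in WT and 0.0992 to 1.25 CPM in KO on day 0. On day 3 the lowest, median and highest values were 0, 0.0762 and 0.258 CPM in WT and 0, 0.0878 and 6.09 CPM in KO. The highest of these was the library labelled d3_KO_345, and the next KO library had 0.470 CPM. On day 7 S100a8 was at 25.8, 51.1 and 284 CPM (lowest, median, highest) in WT and at 9.13, 34.8 and 513.5 CPM in KO. The 3 libraries above 200 CPM were d7_KO_420, d7_WT_356 and d7_WT_419, so that each genotype held high and low animals and the groups overlapped. S100a9 had the same 3 libraries on top, at higher levels. It was at 0 to 0.461 CPM in WT on day 3, and at 34.6, 69.4 and 410 CPM in WT and 13.3, 48.5 and 714 CPM in KO on day 7. In the library labelled d3_KO_345 it had 586 counts, or 12.2 CPM, just below the 13.3 CPM of d7_KO_423.

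Retnlg and Mmp8 encode secreted proteins of neutrophils, a resistin-like hormone and the neutrophil collagenase. They had the fewest counts before day 7. Retnlg was at 0 to 0.0419 CPM in WT on day 3, with 5 counts over the 7 libraries together. On day 7 it was at 3.70, 13.5 and 84.7 CPM (lowest, median, highest) in WT and at 1.17, 8.27 and 75.5 CPM in KO. Mmp8 was at 0.799, 4.96 and 67.7 CPM in WT and at 0.342, 6.08 and 65.2 CPM in KO on that day. For both genes the highest library of each genotype was d7_WT_419 or d7_KO_420, and the lowest KO library was d7_KO_423. Mmp8 had the widest spread of the 10 genes on day 7, with 198 times as much in the highest library as in the lowest. Retnlg spread over 72.6 times and S100a8 over 56.2 times.

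Clec4e and Clec4d encode the C-type lectin receptors Mincle and MCL, which recognise microbial glycolipids and signal through the adaptor encoded by Fcer1g. Clec4e was at 0.0572 to 0.450 CPM in WT on day 3, with at least 1 count in each of the 7 libraries and at or under the floor of 3 counts in 2 of them. On day 7 it was at 3.20, 11.3 and 62.8 CPM (lowest, median, highest) in WT and at 4.49, 19.1 and 65.6 CPM in KO. The library labelled d3_KO_345, with 721 counts or 14.99 CPM, was in the middle of that range. Clec4d was at 1.40, 5.22 and 30.2 CPM in WT and at 2.11, 7.01 and 17.01 CPM in KO on day 7, against 0 to 0.111 CPM in WT on day 3. Trem1, a receptor that amplifies the response of myeloid cells through the adaptor encoded by Tyrobp, was at 3.27, 7.71 and 52.7 CPM in WT and at 2.11, 8.88 and 53.7 CPM in KO. Its day 3 values were 0 to 0.230 CPM in WT and at most 0.403 CPM in KO outside d3_KO_345, which had 5.22 CPM.

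Among the receptors that guide neutrophils, Csf3r was present at low level before day 7 and C5ar1 showed the smallest range. Csf3r, the G-CSF receptor, was at 0 to 0.356 CPM in WT on day 3 and at 0.0799 to 0.806 CPM in 7 KO libraries. On day 7 it was at 1.55, 4.84 and 45.0 CPM (lowest, median, highest) in WT and at 5.67, 14.2 and 24.9 CPM in KO. The KO libraries lay within the range of WT, whose values were led by d7_WT_419 and d7_WT_370. Cxcr2, the receptor for the CXC chemokines of neutrophil recruitment, was at 1.30, 2.92 and 30.4 CPM in WT and at 1.61, 4.63 and 11.9 CPM in KO. C5ar1 was at 0.940, 3.15 and 15.2 CPM in WT and at 1.49, 6.10 and 17.2 CPM in KO, a range of 18.3 times over the 14 libraries. In the library labelled d3_KO_345 these receptors were at 9.56, 5.18 and 6.24 CPM, in the order Csf3r, Cxcr2 and C5ar1, all inside the day 7 range.

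Per kilobase of exon, calprotectin led in every animal of day 7 and the receptors could hardly be ordered. The medians over the 14 libraries were 114 RPKM for S100a9, 61.8 RPKM for S100a8 and 17.8 RPKM for Retnlg. S100a9 was above S100a8 in 14 of 14 libraries, S100a8 above Retnlg in 14, and Retnlg above Clec4d, with a median of 5.15 RPKM, in 13. Clec4d was above Clec4e (3.27 RPKM) in 12 of 14, which rests on exon lengths of 1336 bases for Clec4d and 4965 for Clec4e. The next genes in order were Csf3r (2.90 RPKM), Trem1 (2.77 RPKM), Mmp8 (2.04 RPKM), C5ar1 (1.56 RPKM) and Cxcr2 (1.51 RPKM). From Clec4e down, each was above its next neighbour in only 6 to 8 of the 14 libraries, so their order does not hold across animals.

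Between day 3 and day 7 all 10 genes separated in WT: every library of day 7 was above every library of day 3. Of all genes tested in WT, 2.95% separated in this way. In KO 3 of the 10 separated with all libraries (3.0% of all genes), and 10 of 10 without the library labelled d3_KO_345 (5.98%). From the pooled counts, S100a8 was 970 times as high on day 7 as on day 3 in WT (95% counting interval 700 to 1385), on 36 counts on day 3. Retnlg was 1750 times as high (750 to 5392), on 5 counts. The ratio for C5ar1, the lowest in WT, was 57.6 (41.05 to 83.4), and that for Csf3r was 89.5 (67.9 to 120). For Mmp8, with a single count on day 3, the ratio was 6125 with an interval from 1099 to 2.42e+05. In KO the ratios were 87.7 for S100a8 and 6.57 for C5ar1 with all libraries, and 723 (517 to 1044) and 56.8 (40.3 to 82.8) without the library labelled d3_KO_345.

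In WT the fits gave the same order of the 10 genes. In edgeR's quasi-likelihood model the log2 fold change of day 7 over day 3 in WT was 9.82 (SE 0.88) for S100a8, 10.46 (SE 1.11) for Retnlg, 6.58 (SE 0.77) for Clec4e and 5.71 (SE 0.74) for C5ar1. The median over the 10 genes was 7.83, beside 0.01 over all genes tested. In KO it was 3.94, and 6.69 without the library labelled d3_KO_345, beside -0.01 and -0.01 over all genes. That library alone took S100a8 from 9.62 to 6.73 and C5ar1 from 5.78 to 2.89. The counts past the adjusted threshold, 10 of 10 in each genotype, restate how the genes were chosen and are not evidence of the rise. Of all genes tested, 10.6% in WT and 10.5% in KO were called higher (11.9% in KO without d3_KO_345).

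**Figure D2:**
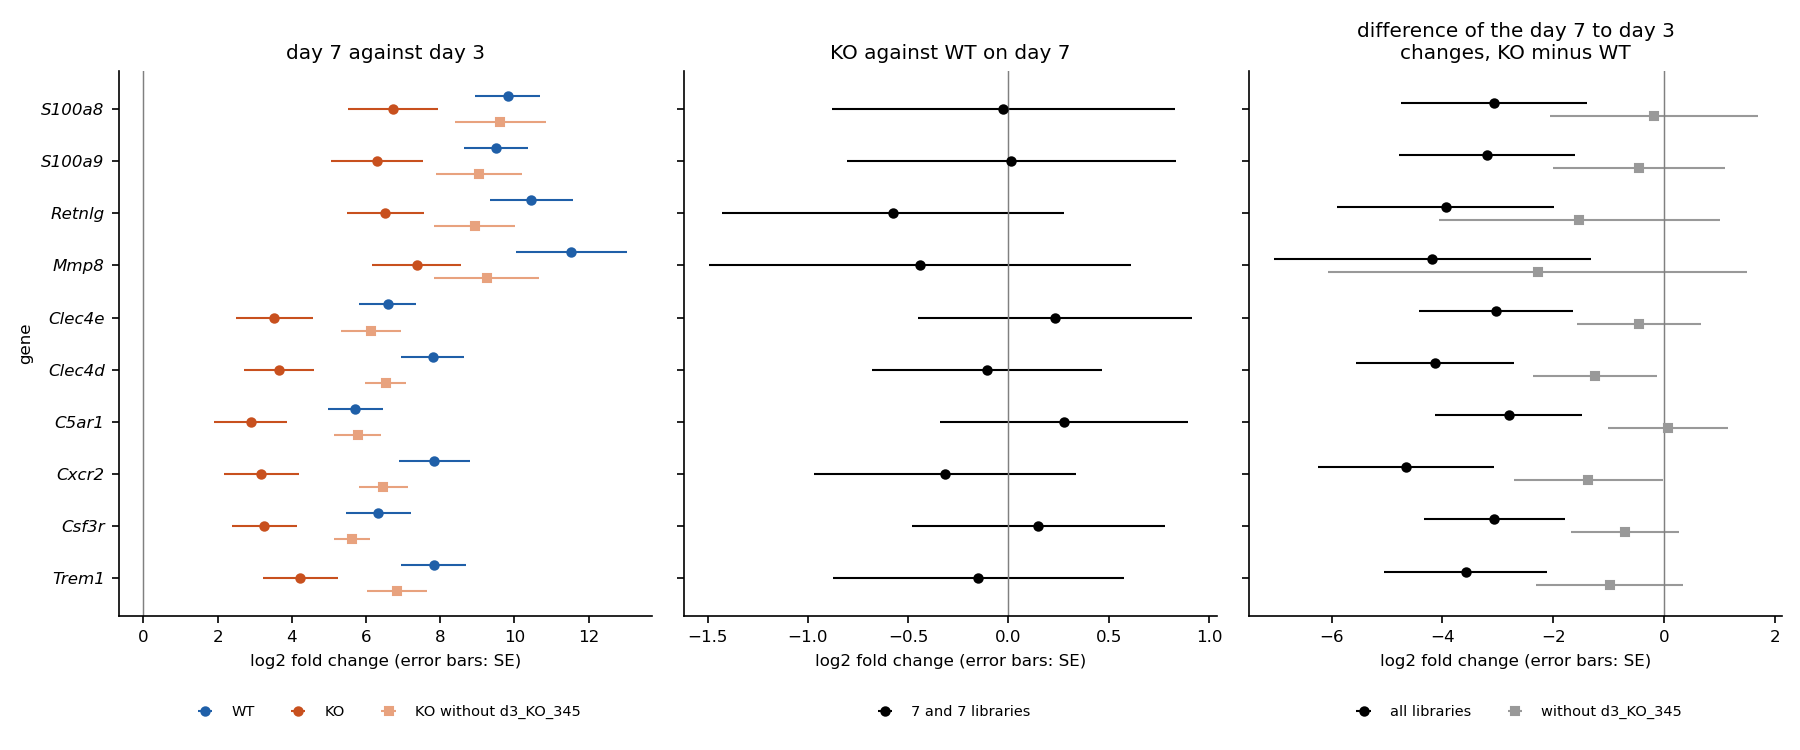
Fitted log2 fold changes with SE for the 10 genes: day 7 over day 3 in each genotype (left), KO over WT on day 7 (middle) and the difference of the day 7 to day 3 changes, KO minus WT (right). Leaving out the library labelled d3_KO_345 (squares) brings the KO changes closer to those of WT and the differences towards 0. The median difference is then -0.84, with wide error bars. The error bars of KO over WT on day 7 all span 0.

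No difference between genotypes was detected for the 10 genes on any day. On day 7 all 10 were tested, none was called and none had an unadjusted p under 0.05, where 0.00642% of all genes were called and 12.9% had an unadjusted p under 0.05. The log2 fold change of KO over WT was -0.03 (SE 0.86) for S100a8, with an adjusted p of 0.994 in edgeR's quasi-likelihood test. It was 0.01 (SE 0.82) for S100a9, -0.58 (SE 0.85) for Retnlg and -0.44 (SE 1.05) for Mmp8. Among the receptors it was 0.15 (SE 0.63) for Csf3r, 0.28 (SE 0.62) for C5ar1 and -0.32 (SE 0.65) for Cxcr2. The values for Clec4e, Clec4d and Trem1 were 0.23, -0.11 and -0.15. With errors of that size, differences of 2-fold or more in either direction remain possible for each gene. KO was higher for 4 of the 10, with a median of -0.07 beside 0.00 over all genes.

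These day 7 differences turned on single animals. Without d7_KO_420 the fold change was -1.64 (SE 0.65) for S100a8, -1.42 (SE 0.64) for S100a9, -1.74 (SE 0.76) for Retnlg and -2.01 (SE 0.97) for Mmp8. The adjusted p were 0.151, 0.197, 0.187 and 0.222 in edgeR's quasi-likelihood test, so none was called, and KO was higher for 1 of the 10 genes, Csf3r. Without d7_WT_419, in contrast, KO was higher for all 10 and the median was 0.49, again with none called. These 2 libraries were the highest of their genotype for most of the 10 genes. d7_KO_420 was also the KO library with the most Hk2 and the most red cell RNA of day 7, and the part of either in the values was not tested.

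On days 0 and 3 most of the genes had too few counts for a test. On day 0 none of the 10 passed the filter on low counts, and 0.0335% of the genes tested were called. On day 3, where 0.00647% were called, S100a9 and Clec4e were tested. S100a9 only just passed the filter, and was tested in 8 of the 15 fits that left out 1 library. It failed the filter without the library labelled d3_KO_345, among others. S100a9 had a log2 fold change of 3.17 (SE 1.27) and Clec4e of 3.26 (SE 1.18), each with an adjusted p of 0.623 in edgeR's quasi-likelihood test. Both had an unadjusted p under 0.05, as had 7.88% of the genes tested. Without that library only Clec4e was tested, with 0.71 (SE 0.74, adjusted p = 0.836). The day 3 differences in these genes thus rested largely on 1 animal whose Hk2 level went against its label.

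The change from day 3 to day 7 did not differ detectably between genotypes either, but this comparison can decide little. It uses the days by which the genes were chosen, and it rests on day 3 counts near the floor. Over the WT libraries of day 3 together, Mmp8 had 1 count, Retnlg 5 and Clec4e, with the most, 75. Only 2 of the 10 genes passed the filter between genotypes on day 3, and 1 without d3_KO_345. In the interaction all 10 genes had a smaller change in KO, with a median difference of -3.39 on the log2 scale beside -0.01 over all genes, and 0.0% of all genes were called. The largest were Cxcr2 at -4.65 (SE 1.59) and Mmp8 at -4.18 (SE 2.86), with adjusted p of 1.000 in edgeR's quasi-likelihood test. Unadjusted p were under 0.05 for 6 of the 10 and for 2.69% of all genes. Without the library labelled d3_KO_345 this held for none of the 10 and for 2.50% of all genes, and the median was -0.84. S100a8 moved from -3.07 to -0.19 and C5ar1 from -2.81 to 0.07.

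Within day 7 the 10 genes were high and low in largely the same animals. d7_WT_419 was among the 3 highest libraries for all 10 genes, and d7_KO_420 and d7_WT_356 for 8 each. d7_KO_420 ranked first for S100a8, S100a9, Clec4e, C5ar1 and Trem1, and d7_WT_419 for the other 5. At the low end, d7_KO_423 was among the 3 lowest for 9 genes and d7_WT_361 for 7. High and low animals were thus found in both genotypes.

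**Figure D3:**
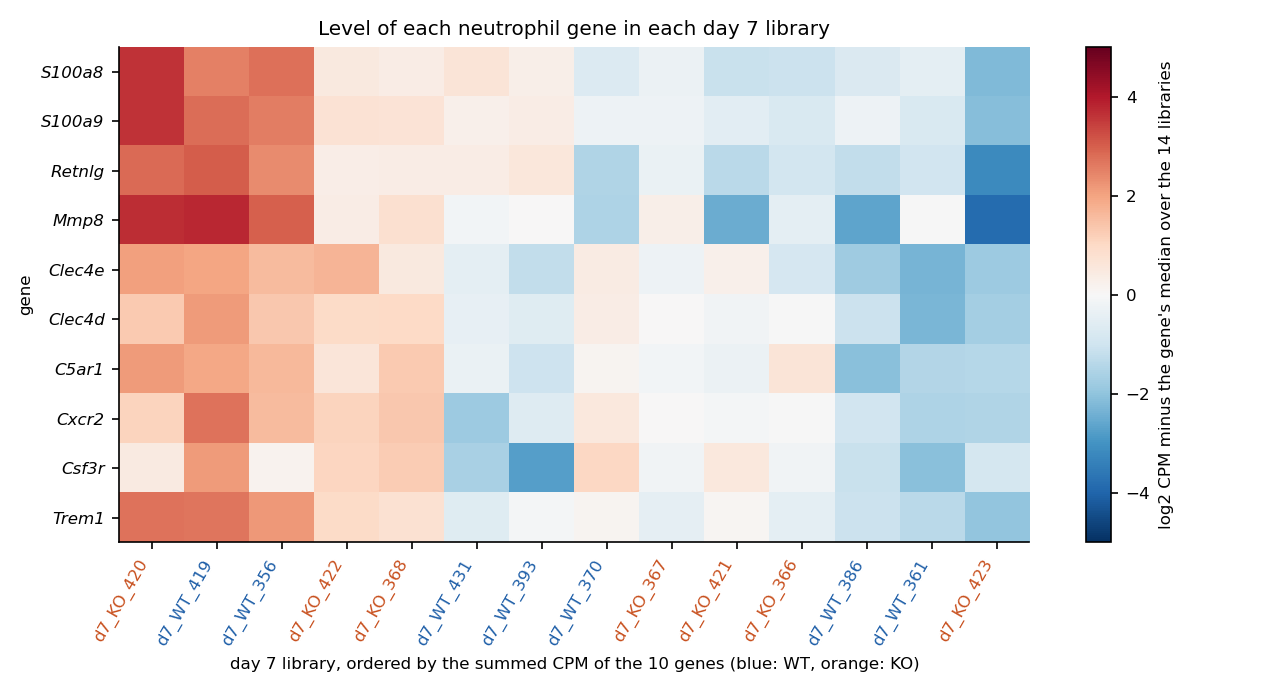
Level of each gene (rows) in each of the 14 libraries of day 7 (columns, ordered by the summed CPM of the 10 genes), as log2 CPM minus the median of the gene. The columns d7_KO_420, d7_WT_419 and d7_WT_356 are high in nearly every row and d7_KO_423 is low in every row, whereas the row of Csf3r departs from those of S100a8, S100a9, Retnlg and Mmp8 in several columns.

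As a description, Pearson's r of log2 CPM was taken over the 14 libraries, which were scaled together. It was 0.985 for S100a8 and S100a9, 0.972 for S100a8 and Retnlg and 0.961 for Retnlg and Mmp8. It was 0.9495 for the neighbouring lectin genes Clec4e and Clec4d and 0.848 for the receptor genes Cxcr2 and Csf3r. Genes of different roles could be as close, at 0.948 for S100a9 and Trem1 and 0.930 for Clec4d and Cxcr2. Csf3r departed most, with the 4 lowest values of the 45 pairs: 0.334 with S100a8, 0.342 with Retnlg, 0.375 with Mmp8 and 0.441 with S100a9. It was closer to other receptor and lectin genes, at 0.742 with C5ar1, 0.795 with Clec4e and 0.797 with Clec4d. Cxcr2 was also lower with S100a8 (0.655), Retnlg (0.698) and Mmp8 (0.714).

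The ratio of S100a8 to Csf3r, taken per kilobase, showed by animal how the levels of these genes parted. It ran from 6.32 in d7_WT_370 to 188 in d7_KO_420, and was 172 in d7_WT_393 and 126 in d7_WT_356. The median was 65.0 in the 7 WT libraries and 11.4 in the 7 KO libraries, with overlapping ranges (6.32 to 172 and 6.91 to 188), and the difference was not tested. The ratio of S100a9 to S100a8 was nearly fixed by comparison, at 1.40 to 2.75, and that of Clec4d to Clec4e was 0.964 to 2.81. In the library labelled d3_KO_345 S100a8 stood at 3.31 times Csf3r, below every library of day 7. There S100a8 and S100a9 made up 27.7% of the summed CPM of the 10 genes, against 49.4 to 79.4% on day 7.

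Granule and red cell genes were high in some of the same libraries. Ngp, a granule protein of immature neutrophils, was at 188 CPM in d7_KO_420 and 99.6 CPM in d7_WT_356, at 20.6 CPM in d7_WT_419 and at 8.09 CPM in d7_WT_393. It was at 0.0184 CPM in d7_WT_370, the library with the lowest ratio, and at 0.0402 to 1.43 CPM in the 6 other KO libraries. Ltf, another granule gene, followed this only in part. It was at 56.05 CPM in d7_KO_420 and 40.3 CPM in d7_WT_356. In d7_KO_423 it was at 20.7 CPM, above the 7.38 CPM of d7_WT_419 and the 3.59 CPM of d7_WT_393. With the mean log2 CPM of the 10 genes, Pearson's r was 0.892 for Lcn2, 0.876 for Chil3, 0.706 for Ngp and 0.45 for Ltf. Mpo and Elane, which mark earlier precursors in the marrow, did not exceed 0.0801 CPM in any day 7 library. The summed level of 5 red cell genes, all of them detected in every group, was 550 CPM in d7_KO_420, 182 CPM in d7_WT_356 and 7.65 CPM at the lowest, in d7_KO_368. Over the groups of day 7 it ranged from 8.25 to 182 CPM in WT and from 7.65 to 550 CPM in KO. The part of blood in the levels of the 10 genes was not tested.

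**Figure D4:**
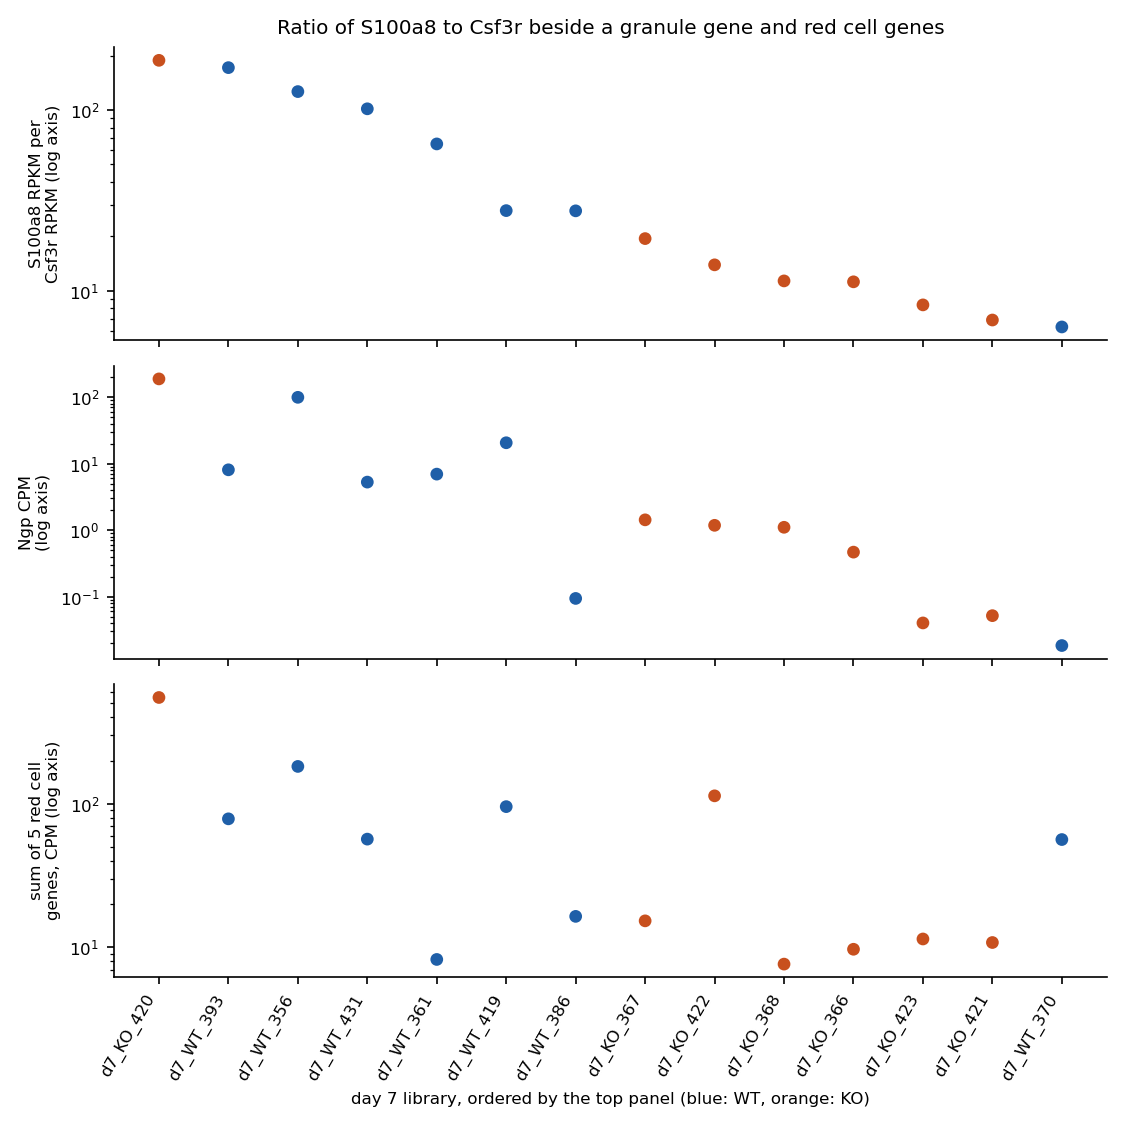
The ratio of S100a8 to Csf3r in RPKM (top), the CPM of Ngp (middle) and the summed CPM of 5 red cell genes (bottom) in each library of day 7, all on log axes and ordered by the ratio. d7_KO_420 is highest in all 3 panels, and d7_WT_370, with the lowest ratio, has the lowest Ngp.

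Other neutrophil genes were mostly higher on day 7 too, with exceptions. Of 18 further markers of mature neutrophils, 13 were tested in WT and 12 were called higher and 0 lower, 12 of 14 in KO, and 11 of 12 in KO without the library labelled d3_KO_345. As for all lists below, the genes were chosen with results of these libraries known, so the counts are descriptions. For comparison 8.7% of all genes were called lower in WT and 8.83% in KO. Acod1, the enzyme of itaconate synthesis in activated myeloid cells, was at 0 to 0.619 CPM in WT on day 3 and 1.96 to 71.4 CPM on day 7. Cd177, a surface protein used as a neutrophil marker, was at 164 to 230 CPM in WT on day 3 and 129 to 311 CPM on day 7, with a log2 fold change of 0.11 (SE 0.17). Ly6g, the antigen by which mouse neutrophils are sorted, was already at 7.92 to 43.2 CPM in WT on day 3 and reached 48.1 to 319 CPM on day 7. Slfn4 was at 40.0 to 61.0 CPM and then at 50.0 to 158 CPM. These 3 genes were thus well above the floor on day 3 while the 10 genes were close to it, and Cd177 was not called on day 7.

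Granule genes of neutrophil precursors were low before day 7. The sum of 12 of them was 0.225 to 0.796 CPM in WT on day 3 and 4.23 to 406 CPM on day 7, and 23.0 to 629 CPM in KO. Only 3 passed the filter, Chil3, Lcn2 and Ltf, and all were called higher in both genotypes, with log2 fold changes in WT of 9.81 (SE 1.26), 7.66 (SE 1.02) and 5.17 (SE 0.74). Lcn2, an iron-sequestering protein, is also made by inflamed epithelium and Chil3 by macrophages.

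Ligands of the receptors were higher on day 7 as well. Of the CXCR2 ligands, 3 of 4 tested were called higher in WT and in KO, and 4 of 4 in KO without the library labelled d3_KO_345. Cxcl2, a chemokine made by macrophages, neutrophils and epithelium, was at 0.362 to 2.49 CPM in WT on day 3 and 15.9 to 255 CPM on day 7 (log2 fold change 6.14, SE 0.68). In KO on day 7 it was at 16.8 to 405.5 CPM. Cxcl5, made largely by epithelial cells, went from 1.10 to 4.31 CPM to 4.18 to 62.2 CPM in WT. Cxcl1 was not called in WT (1.09, SE 0.47) or in KO (1.04, SE 0.41), and was called in KO without the library labelled d3_KO_345 (1.38, SE 0.37, adjusted p = 0.0134 in edgeR's quasi-likelihood test). In the library labelled d3_KO_345 the sum of these ligands was 75.3 CPM, beside 5.09 to 13.03 CPM in the other KO libraries of day 3.

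Of 9 granulopoietic cytokines and inducers, 5 of 5 tested were called higher in WT. In KO it was 3 of 5, and 5 of 5 without the library labelled d3_KO_345. Those tested in WT included the inflammatory genes Il1b and Tnf as well as Csf1, but not Csf3. Il1b was at 0.603 to 3.22 CPM in WT on day 3 and 17.3 to 312 CPM on day 7, and Tnf was at 4.01 to 20.8 CPM and then 28.4 to 52.5 CPM. Csf3, the gene of G-CSF and thus of the ligand of Csf3r, was too low for a test, at 0 to 0.110 CPM and then 0.188 to 10.9 CPM in WT. Of the C5a axis, 2 of 5 were called higher and 1 lower in WT, and 4 of 6 and 1 in KO (3 of 5 and 1 without the library labelled d3_KO_345). The lower gene was Hc, which encodes C5, the precursor of C5a (-1.03, SE 0.26 in WT and -1.04, SE 0.23 in KO). C3ar1, the receptor for the fragment C3a, and Cfp, which encodes properdin, were called higher in both. C3 was not called (1.38, SE 0.59 in WT). A further list held signalling partners, a ligand and related receptors of Trem1 and the lectins. Of these, 6 of 7 tested were called higher in WT and 8 of 9 in KO (7 of 8 without the library labelled d3_KO_345). Among them were the adaptor genes Tyrobp (log2 fold change 3.30 in WT) and Fcer1g (2.91). Pglyrp1, which encodes a ligand of Trem1, was at 106 to 203 CPM in WT on day 3 and 161 to 289 CPM on day 7, and Syk was not called in either.

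Of the S100 genes outside the 10, relatives of the calprotectin genes, 2 of 9 tested were called higher and 1 lower in WT, and none of 9 in either direction in KO (1 of 8 higher without the library labelled d3_KO_345). The higher genes in WT were S100a4 (2.17, SE 0.45), which leukocytes and fibroblasts express, and S100a11 (1.18, SE 0.22), and the lower was S100g (-1.39, SE 0.46), a calcium-binding protein of enterocytes. S100a6, the most abundant, was at 786 to 2312 CPM in WT on day 3 and 792 to 1939 CPM on day 7. Retnlb, the goblet cell member of the family of Retnlg, was called higher in WT (2.33, SE 0.30) and not in KO (1.04, SE 0.42, adjusted p = 0.0972 in edgeR's quasi-likelihood test). The difference between the genotypes in this change was -1.27 (SE 0.54) on the log2 scale and was not called (adjusted p = 1.000 in edgeR's quasi-likelihood test).

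Markers of other blood and tissue cells also moved with the day. Of 13 monocyte and macrophage markers, 12 of 12 tested were called higher in WT and 11 of 13 in KO (13 of 13 without the library labelled d3_KO_345), and their sum was 42.4 to 52.4 CPM in WT on day 3 and 96.3 to 346.1 CPM on day 7. In KO it was 38.04 to 58.9 CPM in 7 libraries of day 3 and 170.5 CPM in the library labelled d3_KO_345, and 98.3 to 543 CPM on day 7. Dendritic cell markers were called higher for 3 of 3 in WT and 2 of 3 in KO, T cell markers for 2 of 6 and 6 of 6, B and plasma cell markers for 4 of 4 and 3 of 4 (2 of 4 without the library labelled d3_KO_345), and mast cell markers for 2 of 3 and 3 of 5. Eosinophil markers were called for 1 of 2 in each genotype, Il5ra. Red cell genes were called higher for 5 of 5 in WT and for none of 5 in KO, and platelet genes for 2 of 3 and none of 3 (1 of 3 without that library). Fibroblast markers were called for none of 5 in either, and 1 of 2 endothelial markers, Vwf, was called lower in each. Of 9 epithelial markers none was called in WT and 1, Krt18, was called lower in KO (-0.51, SE 0.16). Without the library labelled d3_KO_345 Krt18 was not called (-0.43, SE 0.16, adjusted p = 0.0627 in edgeR's quasi-likelihood test). In the interaction no gene of these lists was called. The part of these cells in the levels of the 10 genes was not tested.

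Between the genotypes on day 7 no gene of any of these lists was called. For the monocyte and macrophage markers KO was higher for 11 of 13, with a median log2 fold change of 0.87 beside 0.00 over all genes, and 3 had an unadjusted p under 0.05, where 12.9% of all genes did. Their sum was 96.3 to 346.1 CPM in WT and 98.3 to 543 CPM in KO, with overlapping ranges.

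The genes whose day 7 pattern was most like that of the 10 were searched among 12779 genes. The measure was Pearson's r across the 14 libraries with the mean log2 CPM of the 10 genes. The closest were Hp (r = 0.986), which encodes haptoglobin, Ifitm1 (0.982), Cd300lf (0.978), Samsn1 (0.976) and Fpr1 (0.974), the receptor for formylated peptides. Then came Chil1 (0.969), Cd14 (0.967), Napsa (0.965), Adam8 (0.963) and Lilrb4 (0.963). Cd14 was at 46.9 to 191 CPM on day 7 and up to 57.3 CPM on day 3, whereas Fpr1 was at 0.302 to 14.9 CPM and at most 0.457 CPM. With Spearman's rho in place of r, 4 of these 10 genes were among the first 10. The most abundant of the further markers of mature neutrophils followed the pattern less. For them r was 0.655 for Slfn4, 0.406 for Ly6g and -0.498 for Cd177. Apart from Acod1, whose value is not given here, the other genes of that list in the search had r of 0.762 to 0.974.

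Csf3r was set against 6 genes across the 14 libraries of day 7. They were its own ligand gene Csf3, the CXCR2 ligands Cxcl1, Cxcl2, Cxcl3 and Cxcl5, and Epcam for epithelial RNA. With Cxcl2 Pearson's r was 0.537 (permutation p = 0.0473, adjusted p = 0.284 over the 6 relations) and Spearman's rho was 0.587 (permutation p = 0.0307, adjusted p = 0.184). Without the 2 libraries farthest from the median, d7_WT_393 and d7_WT_419, r was 0.468, and within genotypes it was 0.675 in WT and 0.548 in KO (n = 7 each). After adjustment this relation was not past the threshold. With Cxcl1 r was 0.0956 and rho 0.165, with Cxcl3 0.318 and 0.240, with Cxcl5 -0.0864 and -0.112, and with Csf3 0.273 and 0.305, with adjusted permutation p from 0.518 to 0.771 for these r. With Epcam, an epithelial surface gene, r was -0.428 (permutation p = 0.128, adjusted p = 0.383) and rho was -0.415. Epcam itself was at 1351 to 1670 CPM in the 14 libraries. These relations are those of Csf3r alone, which departed most from the other neutrophil genes. With the mean of the neutrophil genes used in the search above, r was 0.941 for Cxcl2 and 0.856 for Cxcl3. It was 0.514 for Cxcl5, 0.506 for Cxcl1 and -0.213 for Epcam. These values with the mean are descriptions and were not tested.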

How the data were processed

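RNA sequencing libraries of 38 mice were grouped by the genotype and day in the labels, and library names are the titles there. The series text names colon tissue, the sample labels isolated epithelial cells. The deposited values are raw gene counts, which the authors made with featureCounts 1.6.2 on paired reads with strand ignored, per the file headers, with 1 distinct command over 76 files. Per the submitters' processing notes, Trim Galore, STAR, featureCounts 1.5.2 and GRCm38 were used, so the 2 sources differ in the version of featureCounts. Per the labels' protocols, the kit was a stranded mRNA kit and reads were pairs of 50 bases. Nothing identifies which mice shared a cage or a preparation day.

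The counts of 2 lanes per library were summed, giving 10.5 to 60.6 M counts (median 43.2 M). Levels are TMM-scaled CPM, or RPKM with the exon length of each gene in the files, which is not the length of a single transcript. Tests used edgeR 4.0.16 (quasi-likelihood, filter on expression by group, compared groups only) in R 4.3.3, with Benjamini-Hochberg adjustment over all genes tested and a threshold of 0.05. Correlations used log2 CPM with a prior count of 2, and 100000 permutations, two-sided. Intervals are 95% and, like the floor of 3 counts, cover counting error only. The fits were tested on simulated data. Alternatives were DESeq2 1.42.0 (size factors and Wald test), other filters (none, or 1 CPM on average), robust dispersions, lane 1 alone, all 38 libraries in 1 fit, a prior count of 0.5, Spearman's rho, and leaving out each replicate. The counts for lists without d3_KO_345 were added after seeing the data.

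The 10 genes, the 20 lists and the tests were chosen with earlier results of these data known. All 10 genes are named, and of each other list at most the 4 with the highest mean level on day 7, together with genes singled out after their values were seen (Mpo, Elane, Hc, S100a4, S100g, Krt18). Acod1 is listed under an older symbol. Globin and Stfa genes have near-identical copies, so their counts are uncertain.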

Additional observations from a re-analysis of the deposited data

Results flagged for a closer look

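In 21 of the 60 combinations of gene and group, 1 library stood far from the others of its group, by the gap to its nearest neighbour relative to the range of the group. A chance rate of about 1 such case in 20 would hold only for normally distributed values. The levels were skewed on day 7, and near the floor a single count among libraries with none is flagged by this rule. That rate therefore cannot be applied here, and 21 of 60 is given as a description. The genes are also not independent, since the same few libraries recur.

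The library labelled d3_KO_345 was the far one in KO day 3 for all 10 genes. It had 6.09 CPM of S100a8, 12.18 CPM of S100a9, 1.122 CPM of Retnlg, 0.4157 CPM of Mmp8, 14.99 CPM of Clec4e and 5.03 CPM of Clec4d. It had 6.236 CPM of C5ar1, 5.176 CPM of Cxcr2, 9.562 CPM of Csf3r and 5.217 CPM of Trem1. Its Hk2 level was 435 CPM, against the KO label.

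In KO day 7, d7_KO_420 stood apart for 5 genes, with 513.5 CPM of S100a8, 714.3 CPM of S100a9, 75.51 CPM of Retnlg, 65.23 CPM of Mmp8 and 53.67 CPM of Trem1. In WT day 7, d7_WT_419 stood apart for Cxcr2 with 30.37 CPM.

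At levels near the floor, d0_KO_54 stood apart in KO day 0 for S100a8 with 1.25 CPM and S100a9 with 1.634 CPM, and d3_WT_346 in WT day 3 for Trem1 with 0.2304 CPM. For Mmp8 a single count set d0_WT_31 (0.06059 CPM) and d3_WT_486 (0.01906 CPM) apart from libraries with none.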

How the results depend on the processing

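No paired analysis was possible because replicate numbers are those of the animals and no 2 groups share any. Counts of the 10 genes called between genotypes and in the interaction were 0 under every alternative. In DESeq2's Wald test with all libraries 10 of the 10 had an unadjusted p under 0.05 in the interaction, as had 521 of all 16371 genes tested. That test was not run without d3_KO_345, where edgeR's quasi-likelihood test gave 0 of the 10. Fold changes of KO over WT on day 7 lie near 0 and changed sign with single libraries: leaving out 1 each time gave -1.64 to 0.45 for S100a8, -1.42 to 0.52 for S100a9, -1.74 to 0.11 for Retnlg, -2.01 to 0.48 for Mmp8 and -0.17 to 0.74 for Clec4e. The ranges were -0.31 to 0.46 for Clec4d, -0.14 to 0.75 for C5ar1, -0.51 to 0.50 for Cxcr2, -0.047 to 0.91 for Csf3r and -0.92 to 0.47 for Trem1. With the filter at 1 CPM on average, S100a9 was at -0.0056. In the interaction C5ar1 ran from -3.22 to 0.074, with d3_KO_345 left out at the upper end. The r of Csf3r ran from -0.190 to 0.0064 with Cxcl5 and from -0.0153 to 0.193 with Cxcl1. Day 7 over day 3 in KO called 7 to 10 genes when 1 library was left out, and 9 with no filter, with the stricter filter, with lane 1 or with robust dispersions. C5ar1 lost its call in 13 and Cxcr2 in 10 of the 15 fits that left out 1 library, and C5ar1 in those 4 other settings. With rho, 4 genes were shared with the 10 most like by r. Without d3_KO_345, lists in KO had 5 granulopoietic cytokines or inducers, 1 S100 and 1 platelet gene called higher and 0 epithelial genes called lower. Before day 7, counts of the 10 genes limit any test between genotypes, the interaction included.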
